A study of Arabidopsis thaliana with 4 samples.

Results

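Transcripts of 60 genes for proteins of the small (40S) subunit of the cytosolic ribosome were followed in shoots of Arabidopsis thaliana after brief submersion in abscisic acid (ABA), the plant hormone of drought responses. The genes were taken from a list of loci, and a locus entered where the array's annotation names a probe set for it, the brightest set by mean over the arrays standing for the gene. A probe set is a group of short probes for 1 transcript. Of the 60 loci, 41 had a named probe set, among 11365 genes named in all, and these 41 cover 22 of the 26 proteins on the list. No probe set is named here for the other 19 loci, which include every gene of proteins Sa, S5, S6 and S15a on that list.

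The ABA group was 2 pools of wild-type Col-0 shoots covered for 5 min with basal salts and 0.1% Tween 20, a wetting agent, holding 100 uM ABA, and collected 4 h afterwards. The mock group was 2 pools treated the same way with the solution lacking ABA. Both groups were 14-day-old seedlings from upright plates in 24 h light, with 20 to 24 shoots, cut from their roots, in each pool. Each pool went to 1 array with biotin label in 1 colour, and the comparison asks which shoot transcripts differ after ABA.

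As background, each 40S protein is present once in the subunit beside the small-subunit rRNA, and the finished particle finds the start codon and reads the messenger RNA. The subunit has a body, which carries the path of the messenger RNA, and a mobile head, which contacts the transfer RNAs. Flowering plants keep several expressed genes for nearly every one of these proteins, so genes for the same protein can be compared with each other.

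The tissue and the treatment were first checked against their markers. The 3 named leaf genes of 6 listed, RCA and a pair of LHCB4 genes, summed to an intensity of 3520.2 and 3367 in ABA shoots, against 4793 and 5107 in mock shoots, and all 3 fell. Their probe sets can bind related transcripts. Among sets as bright, 32.6% were called lower, against 19.6% of all tested sets. After quantile normalization, which forces the 4 arrays to 1 distribution, RCA had a log2 change of -0.52 (adjusted p = 0.0312). The LHCB4 genes were then at -0.11 and -0.055 and did not pass. All 4 named ABA-response genes of 6 listed, COR47, COR15A, KIN1 and LEA4-5, rose, by 2.79 to 5.38 on the log2 scale. Of 4 root markers 2 are named. PYK10, which encodes a beta-glucosidase abundant in roots, fell, and read 104 and 119.9 on the ABA arrays, against 320.5 and 279.7 on the mock arrays, while EXPA7, a root-hair gene, was below the noise level on each array, at 1.75 or less, although its log2 change of 0.12 passed the threshold. The root sum ran from 106 to 122 in ABA shoots and from 280 to 321 in mock shoots, and its part in the results below was not tested.

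The 40S genes were lower after ABA, mostly to a modest degree. In 39 of the 41 genes (95.1%) both ABA arrays lay below both mock arrays, which held for 50.8% of all 19371 tested probe sets and for 71.6% of equally bright ones. In limma, 14 of the 41 (34.1%) were lower at an adjusted p under 0.05. That share is above the 19.6% of all tested probe sets called lower, but close to the 34.4% called among equally bright probe sets, the 500 sets nearest to each gene in mean intensity. The count of calls is therefore no result about 40S genes as such. In limma 0 of the 41 were higher, and the only gene with a change above 0 had an unadjusted p of 0.642, while 3.97% of all tested and 7.16% of equally bright sets were called higher. The median log2 change was -0.39, with quartiles of -0.52 and -0.28, against -0.13 over all tested probe sets. In the 39 genes with a mean intensity of 32 or more, the ABA mean was 39.6% to 91.6% of the mock mean, with a median of 75.5%. In bulk shoots, fewer cells of a type and less RNA per cell cannot be told apart.

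Without any 1 of the 4 arrays the median log2 change of the 41 genes lay between -0.46 and -0.31. Those fits, with 2 arrays against 1, called 0 of all 19371 probe sets (limma), so their calls say nothing about single genes. With all 4 arrays, 30 of the 41 were lower at an unadjusted p under 0.05 (limma). Of all 19371 sets, 7839 were under it in either direction. Lower ones were not counted apart among all or equally bright sets, so these counts cannot be compared. The mock arrays differed between themselves in these genes: mock replicate 2 was above mock replicate 1 in 39 of 41. The median log2 difference was 0.14, against 0.0023 over all tested probe sets, and the share among all or equally bright sets was not computed. It was not particular to these genes. Summed intensity on mock replicates 1 and 2 was 46394.5 and 50972.5 for large-subunit (60S) genes, but 1791 and 1678 for genes of 40S-binding initiation factors. The part of this array difference in the results was not tested. Between the ABA arrays the median log2 difference was -0.023, with 20 of 41 genes higher on replicate 2.

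**Figure D1:**
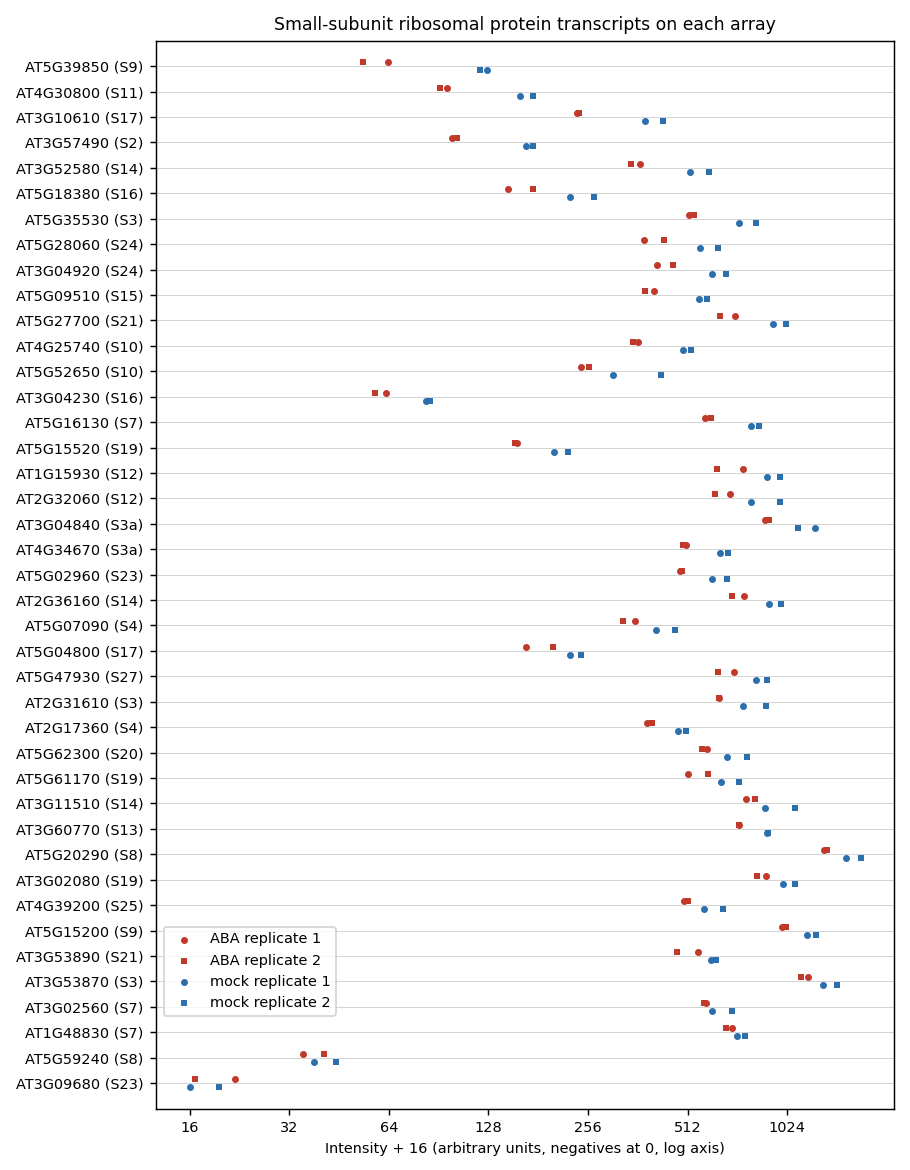
Intensity of the 41 small-subunit genes on each of the 4 arrays (x axis, log scale, 16 added and negatives at 0), with genes ordered by their log2 change. Red points (ABA) lie left of blue points (mock) for 39 genes, and the ranges overlap only in the dim genes AT5G59240 and AT3G09680.

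Proteins S2, S3 and S9 line the channel by which messenger RNA enters the subunit, and S23 lies at the decoding centre. The S9 gene AT5G39850 had the lowest log2 change of the 41. AT5G39850 read 47.6 and 37.4 on the ABA arrays, against 110.5 and 105 on the mock arrays (log2 change -1.08, SE 0.113, adjusted p = 0.0288), or 39.6% of the mock mean. Both ABA arrays lay far below both mock arrays, but after quantile normalization this S9 gene did not pass (log2 change -0.78, adjusted p = 0.0677). AT3G57490 read 83.0 and 86.6 on the ABA arrays, against 150.1 and 159 on the mock arrays. This S2 gene fell to 54.9% of the mock mean (log2 change -0.76, SE 0.0432, adjusted p = 0.0182), with replicates close together in both groups. It is also 1 of the 3 genes that still passed after quantile normalization, which forces the 4 arrays to 1 distribution (log2 change -0.49, adjusted p = 0.0342).

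Of 3 named S3 genes, 1 fell. AT5G35530 read 501 and 521 on the ABA arrays, against 714 and 809.7 on the mock arrays (log2 change -0.56, SE 0.0811, adjusted p = 0.0413). AT3G53870 averaged 1141 ± 39.2 in ABA shoots and 1366 ± 88.8 in mock shoots (SD, n = 2 each), with a log2 change of -0.26 short of the threshold (adjusted p = 0.0974). AT2G31610, whose probe set can bind related transcripts, changed by -0.36 and did not pass either (adjusted p = 0.111). Their ABA arrays were nonetheless below their mock arrays in each case.

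Only 1 of the S23 genes gave a signal above the noise level. AT5G02960 read 471 and 477 on the ABA arrays, against 592 and 659 on the mock arrays, with no overlap and a log2 change of -0.39 (adjusted p = 0.0534). AT3G09680 read 5.89 and 0.633 on the ABA arrays, against -0.704 and 3.56 on the mock arrays. The AT3G09680 set lay below the noise level of the arrays (7.54 to 8.76, the size of the 1st percentile), so its log2 change of 0.11 carries no information.

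Among head proteins, 17 genes for 9 proteins were measured, 6 fell, and all 17 had both ABA arrays below both mock arrays. Sets as bright as the small-subunit genes, head and body together, were called lower in 34.4% and separated in this way in 71.6%. For all tested sets the shares were 19.6% and 50.8%. The median log2 change of the head genes was -0.44. S17, a protein found in archaea and eukaryotes but not in bacteria, had the lowest one. AT3G10610 read 220.5 and 225 on the ABA arrays, against 366 and 416 on the mock arrays (log2 change -0.77, SE 0.0795, adjusted p = 0.0285), or 56.9% of the mock mean. The other S17 gene, AT5G04800, read 150.4 and 185 on the ABA arrays, against 210.3 and 228 on the mock arrays. Its groups did not overlap, but its log2 change of -0.36 did not pass (adjusted p = 0.158).

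S16 and S15 reach with their tails towards the transfer RNA sites. AT5G18380 read 131 and 159 on the ABA arrays, against 209 and 251 on the mock arrays, and with that spread its log2 change of -0.61 missed the threshold (adjusted p = 0.091). The other S16 gene fell with a smaller change: AT3G04230 read 46.9 and 42.1 on the ABA arrays, against 66.8 and 69.2 on the mock arrays (log2 change -0.47, SE 0.0547, adjusted p = 0.0319). Its replicates lay closer together than those of AT5G18380 in both groups. AT5G09510 read 389 and 366 on the ABA arrays, against 539 and 571 on the mock arrays, and this S15 gene fell to 68.0% of the mock mean (log2 change -0.54, SE 0.0538, adjusted p = 0.0274).

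S10 and S12 lie in the part of the head called the beak. AT4G25740 read 346 and 334 on the ABA arrays, against 479.7 and 509.7 on the mock arrays, and this S10 gene fell (log2 change -0.52, SE 0.0454, adjusted p = 0.024). It also passed after quantile normalization (log2 change -0.31, adjusted p = 0.0362). The second S10 gene, AT5G52650, whose probe set can bind related transcripts, had the same log2 change of -0.52 but missed the threshold (adjusted p = 0.199), reading 228 and 242 on the ABA arrays, against 289 and 410.4 on the mock arrays. The S12 genes AT1G15930 and AT2G32060 were alike at -0.44 and -0.43, and neither passed (adjusted p = 0.115 and 0.148).

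S19, whose human gene is mutated in Diamond-Blackfan anaemia, has 3 named genes here and 1 of them fell. AT5G15520 read 141 and 138 on the ABA arrays, against 186 and 206 on the mock arrays (log2 change -0.45, SE 0.0622, adjusted p = 0.0393). AT5G61170 and AT3G02080 changed by -0.32 and -0.28 and did not pass. Nor did the S20 gene AT5G62300 at -0.32 (adjusted p = 0.111) or the S25 gene AT4G39200 at -0.28 (adjusted p = 0.136), S25 being needed in yeast and mammals for initiation at internal entry sites. All 4 of these genes lay below mock on both ABA arrays.

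Body proteins had 24 genes for 13 proteins, of which 8 fell, 22 had both ABA arrays below both mock arrays, and the median log2 change was -0.37. Here too, 34.4% of sets as bright as the small-subunit genes were called lower and 71.6% separated in this way. For all tested sets the shares were 19.6% and 50.8%. The difference between head and body was not tested. The S11 gene AT4G30800 had the next lowest change after that S9 gene. AT4G30800 read 80.0 and 75.4 on the ABA arrays, against 143 and 159 on the mock arrays (log2 change -0.83, SE 0.069, adjusted p = 0.0229), or 51.5% of the mock mean. It is the only S11 gene named here.

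S14 and S3a form part of the platform, where messenger RNA leaves. AT3G52580 read 351 and 329 on the ABA arrays, against 505 and 577 on the mock arrays, and this S14 gene fell (log2 change -0.64, SE 0.0901, adjusted p = 0.0397). AT2G36160 and AT3G11510, also for S14, changed by -0.37 and -0.30 on the log2 scale without passing (adjusted p = 0.0661 and 0.238). The S3a genes had nearly the same change. AT4G34670 read 489.8 and 482 on the ABA arrays, against 626 and 660.4 on the mock arrays and fell (log2 change -0.39, SE 0.0381, adjusted p = 0.0264). It is the last of the 3 genes to pass after quantile normalization (log2 change -0.18, adjusted p = 0.0429). AT3G04840 averaged 875 ± 15.3 in ABA shoots and 1159 ± 97.0 in mock shoots (SD, n = 2 each), and its change of -0.40 did not pass (adjusted p = 0.0606).

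S7 held both a gene that fell and the bright genes closest to mock. AT5G16130 read 560.4 and 589 on the ABA arrays, against 779.8 and 825 on the mock arrays (log2 change -0.47, SE 0.0483, adjusted p = 0.0283). AT1G48830 read 681 and 653 on the ABA arrays, against 706 and 749.8 on the mock arrays, or 91.6% of the mock mean (log2 change -0.12, adjusted p = 0.183). AT3G02560 read 567 and 558 on the ABA arrays, against 590.0 and 684 on the mock arrays, with a probe set that can bind related transcripts (log2 change -0.17, adjusted p = 0.295). The groups of these 2 genes do not overlap, but the gap between the groups is smaller than the gap between the mock arrays. Their sign depends on the scaling, at 0.097 and 0.046 after quantile normalization.

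S13 showed how much the replicate spread decides a call. AT3G60770 read 715 and 719 on the ABA arrays, against 874 and 879 on the mock arrays, the tightest replicates of all 41 genes by standard error, and its small change passed (log2 change -0.28, SE 0.0184, adjusted p = 0.0196). AT5G28060 read 362 and 417 on the ABA arrays, against 542 and 615 on the mock arrays, a wider spread. This S24 gene and its partner had changes larger in size on the log2 scale, -0.55 for AT5G28060 and -0.54 for AT3G04920, and did not pass (adjusted p = 0.0686 and 0.0523). The S21 gene AT5G27700 likewise changed by -0.52 without passing (adjusted p = 0.0518), and AT3G53890 by -0.27 (adjusted p = 0.163). For S4, AT2G17360 fell (log2 change -0.33, adjusted p = 0.0357), with a probe set that can bind related transcripts, and AT5G07090 changed by -0.37 (adjusted p = 0.104). The zinc-binding protein S27 had 1 gene, AT5G47930, at -0.36 (adjusted p = 0.0846).

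The S8 genes are a bright and a dim set. AT5G20290 read 1308 and 1335 on the ABA arrays, against 1531 and 1695 on the mock arrays, the brightest set of the 41, with a log2 change of -0.28 (adjusted p = 0.0829). AT5G59240 read 19.2 and 24.6 on the ABA arrays, against 22.1 and 28.3 on the mock arrays. The arrays of this dim gene overlap between the groups, and its log2 change of -0.12 was below its SE of 0.129.

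**Figure D2:**
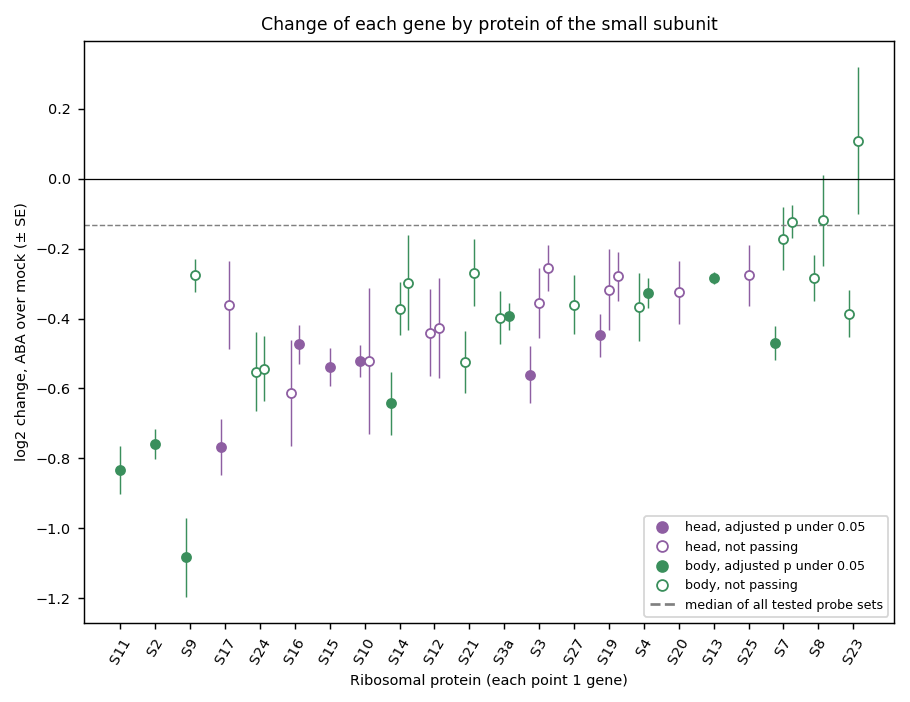
Log2 change (ABA over mock, y axis) of each gene with its SE from limma, by protein (x axis, ordered by the mean change), purple for head and green for body proteins, filled where the adjusted p is under 0.05. Most genes lie between -0.6 and -0.2, below the median of all tested probe sets at -0.13, and the S9 genes lie furthest apart within a protein.

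Genes for the same protein were then set against each other, because the difference between their log2 changes is little affected by a factor common to an array. There were 15 proteins with at least 2 measured genes, and in 10 of them some but not all genes passed. In the other 5 none passed, and in 0 proteins did all of 2 or more genes pass. Among equally bright sets 34.4% were called lower, against 19.6% of all tested sets. The split to be expected from such a share was not computed, so these counts are no result about genes for the same protein. The 15 proteins give 23 pairs, with a median difference in log2 change of 0.16 in size, against a median pooled SD between replicate arrays of 0.099. In each pair the gene with the lower log2 change was put first, so the sign of the difference is fixed by that choice, and pairs within a protein of 3 genes share members. Binding of one gene's probes by transcripts of another gene for the same protein was not tested. In 13 pairs the per-array difference on both ABA arrays lay below that on both mock arrays. How often pairs of other, equally bright probe sets separate in this way was not computed, so this count alone shows no difference between genes for the same protein. With 2 arrays against 2 the exact two-sided permutation test cannot give a p below 0.333, and these 13 pairs had that p.

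The S9 pair differed most. The log2 level of AT5G39850 minus that of AT5G15200 was -3.95 and -4.25 on the ABA arrays, against -3.21 and -3.38 on the mock arrays, a difference in change of -0.81 (SE 0.168). AT5G15200 itself read 971 and 999 on the ABA arrays, against 1156 and 1237 on the mock arrays (log2 change -0.28, adjusted p = 0.053). The difference was -0.77 after quantile normalization, and -1.05 and -0.42 with 1 and 64 in place of the 16 added before log2 was taken. Its size thus depended on that constant, and its direction did not in these settings.

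For S17, AT3G10610 minus AT5G04800 was 0.51 and 0.26 on the ABA arrays, against 0.75 and 0.83 on the mock arrays, a difference in change of -0.41 (SE 0.128). For S7, AT5G16130 minus AT1G48830 was -0.27 and -0.15 on the ABA arrays, against 0.14 and 0.13 on the mock arrays, a difference of -0.35 (SE 0.0635). This S7 pair has nearly the same mean intensity, 688 and 697. The per-array difference was negative on both ABA arrays and positive on both mock arrays. For S14, AT3G52580 minus AT3G11510 was -1.06 and -1.25 on the ABA arrays, against -0.76 and -0.87 on the mock arrays, a difference of -0.35 (SE 0.107). AT3G11510 read 752 and 804 on the ABA arrays, against 863 and 1066 on the mock arrays, with the mock arrays further apart than the ABA arrays. The S7 and S14 differences were -0.33 and -0.39 after quantile normalization. The S23 pair, at -0.50 (SE 0.218), was next in size after S9 but rests on the gene below the noise level. In 8 pairs the difference was under 0.1 in size, the S24 pair among them at -0.0086 (SE 0.0247).

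**Figure D3:**
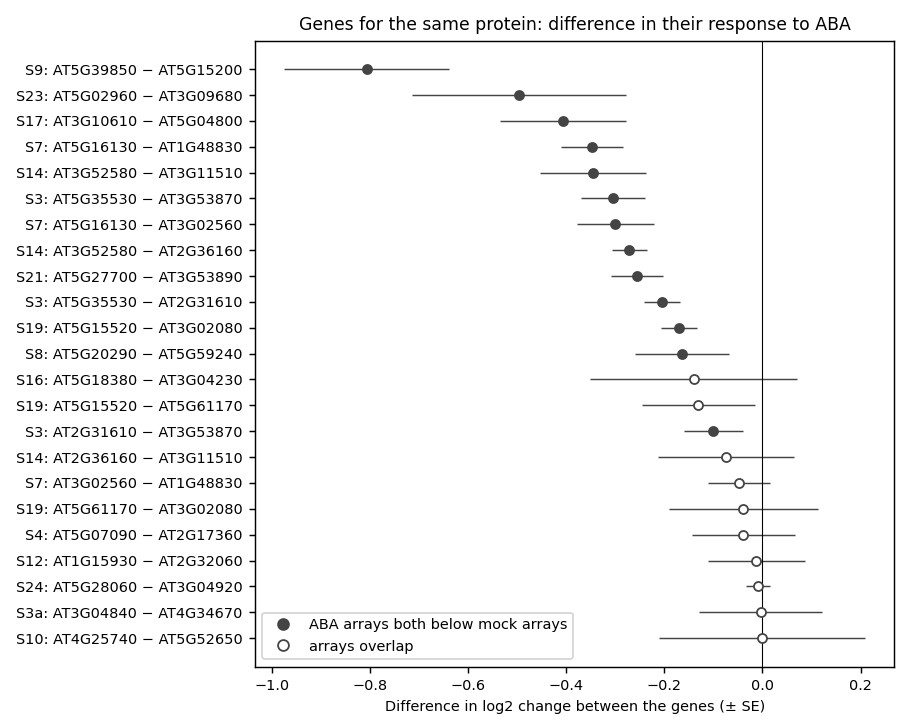
Difference in log2 change (x axis, ± SE from the 4 arrays) within 23 pairs of genes for the same protein, the gene with the lower change first. Filled points mark the 13 pairs whose ABA arrays both lie below both mock arrays, led by the S9 pair at -0.81, and open points the 10 pairs that overlap.

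The 40S genes were among the brightest on the array, 35 of 41 in the top 10% of tested probe sets by mean intensity. Equally bright probe sets were themselves lower after ABA, with a median log2 change between -0.39 and -0.032 for the sets around each gene. Set against them, 29 genes lay below the median of their neighbours and 12 above, and the median of these differences was -0.072. The pooled SD of that measure between replicate arrays was 0.063, and the median was -0.018 without mock replicate 2, against -0.11 without mock replicate 1. The dimmer genes lay further from their neighbours, a difference that was not tested. In the 7 genes with a mean intensity from 32 to 250 the median log2 change was -0.61, against -0.33 for the median of their neighbours, and 5 fell. In the 8 genes from 250 to 500 it was -0.53, against -0.31, and 5 fell. In the 24 genes above 500 it was -0.34, against -0.31, and 4 fell. Of the neighbours of each gene, 35.6% to 40.8% were called lower in the dimmest of these bands. The range was 34.8% to 38.4% in the middle band and 33.4% to 35% in the brightest. Of all tested sets, 19.6% were. The calls lay above the neighbours' shares in both lower bands and below them in the brightest, which was not tested. Across the 39 genes at 32 or more, log2 change and mean intensity had a Spearman rho of 0.60, a description over genes that share 4 arrays. No gene lay in the lowest 5% of its neighbours, and AT5G39850, at 6.6%, was the only one in the lowest 10%.

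**Figure D4:**
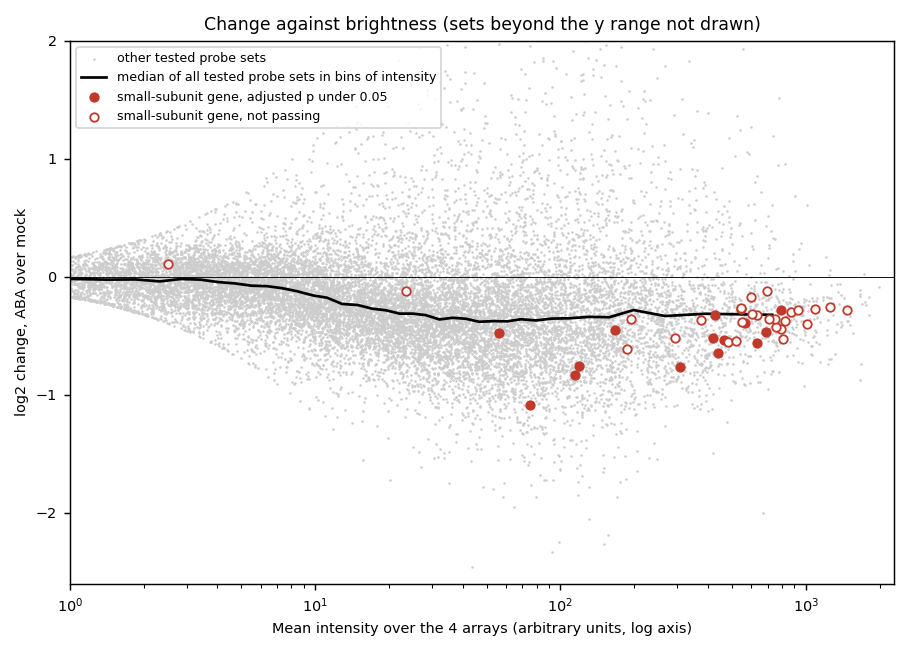
Log2 change (ABA over mock, y axis) against mean intensity over the 4 arrays (x axis, log scale), with the 41 small-subunit genes in red, filled where the adjusted p is under 0.05, other tested probe sets in grey, and the median of all tested sets in bins as a line. Bright red points follow the line near -0.31, and those between 32 and 500 mostly lie below it.

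How large these changes were depended on the scaling between arrays, which is not given for the deposited values. After quantile normalization 3 genes were lower (5.22% of all tested probe sets and 10.7% of equally bright ones were) and 0 higher (4.61% of all sets), with 36 of 41 changes below 0 and a median of -0.15, against -0.0048 over all sets. Centring each array on its median gave 7 lower (12.5% of all tested probe sets were lower) and a median of -0.19, against 0.070 over all sets. Scaling to 9 spiked control sets gave 38 lower (41.7% of all sets) and a median of -0.84, against -0.34 over all sets. The share of equally bright sets called lower was not computed for median centring or spike scaling. The median difference from equally bright sets was -0.072 with either, as with the deposited scaling, so these counts are no result about 40S genes as such. In each of the 4 scalings 0 of the 41 genes were called higher, and their median was below that of all sets, most of which are dimmer. Of all 19371 sets, 1878 were called higher after median centring and 525 with spike scaling.

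**Figure D5:**
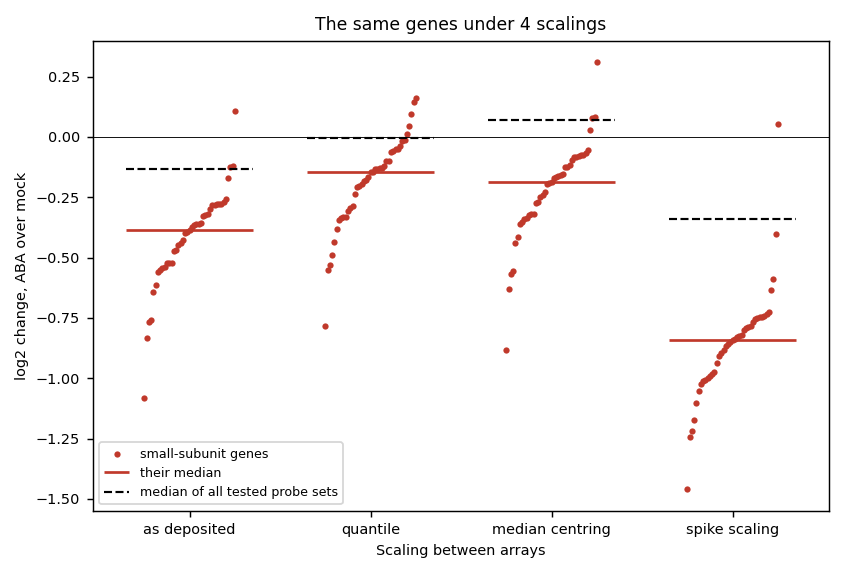
Log2 change (ABA over mock, y axis) of the 41 genes under 4 scalings between arrays (x axis), with their median in red and the median of all tested probe sets as a dashed line. The red median lies at -0.39, -0.15, -0.19 and -0.84, below the dashed line in each case.

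Neighbouring steps of translation were read from further lists of loci. Of 18 named genes among 40 other 40S loci, 5 fell (27.8%) and none rose, the median log2 change being -0.36. Among sets as bright as these, 27.4% were called lower. After quantile normalization 1 of the 18 was lower, with a median of -0.18, against 8.68% of sets as bright. AT1G23410, for the ubiquitin-fused protein S27a, had the lowest, at -0.96 (adjusted p = 0.0334). AT3G56340, for S26, fell too, with a log2 change of -0.62 (adjusted p = 0.0359) and so did AT3G47370, a further S20 gene, with -0.58 (adjusted p = 0.0339). Of 90 named genes for the large (60S) subunit, 42 fell (46.7%) and none rose, their log2 changes having a median of -0.42 and a range from -1.10 to 0.23. Among sets as bright as these, 31.1% were called lower. After quantile normalization 15 of the 90 were lower, with a median of -0.19, against 9.28% of sets as bright. AT5G48760, for L13a, had the lowest change, followed by AT1G07070, for L35a, at -0.88 and AT1G15250, for L37, at -0.86 among those that passed. The difference between the subunits was not tested.

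Genes of 40S assembly had a median log2 change of -0.77, with 5 of 8 named members lower and none higher, and the difference from the 40S genes was not tested. The NOP58-type genes AT3G05060 and AT5G27120, for nucleolar proteins that guide rRNA methylation, fell, with log2 changes of -1.87 and -1.51, as did DIM1A, for an rRNA dimethylase, at -0.79 (adjusted p = 0.0337, 0.0383 and 0.038). Among sets as bright as these 8, 37.2% were called lower, against 19.6% of all tested sets. After quantile normalization the median was -0.49 and none passed, at adjusted p from 0.0568 to 0.371.

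Of 7 named genes for initiation factors that bind the 40S subunit, 2 fell and none rose, where 36.1% of sets as bright and 19.6% of all tested sets were lower. They were AT1G77840, for eIF5, at a log2 change of -0.77 (adjusted p = 0.0422), and AT4G20980, for an eIF3 subunit, at -0.76 (adjusted p = 0.0182). The other 5, for eIF1 and eIF1A, ran from -0.10 to 0.48 without passing (adjusted p from 0.137 to 1.0), and the median of the 7 was 0.0073. After quantile normalization 1 of the 7, AT4G20980, was lower, against 11.6% of sets as bright, and the median of the 7 was 0.22.

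Of the TOR pathway, which controls ribosome production and signals to the 40S protein S6, RAPTOR1 fell (log2 change -0.44, adjusted p = 0.0393) and RAPTOR2 was below the noise level. Of 9 nuclear genes for the plastid small subunit 2 are named and both fell, AT3G13120 with a log2 change of -0.51 and AT1G64510 with -0.41. Of 11 genes of dividing cells 1 is named, the replication helicase gene PRL (MCM7), which averaged 36.4 ± 0.476 in ABA shoots and 57.9 ± 3.59 in mock shoots (SD, n = 2 each; log2 change -0.50, adjusted p = 0.0257). Its fall lies beside that of the 40S genes, and the part of dividing cells in them was not tested. Among sets as bright, 19.3% were called lower for the TOR genes, 32.8% for the plastid genes and 36.4% for PRL. Of all tested sets, 19.6% were. After quantile normalization the log2 changes were -0.14 for RAPTOR1, -0.27 for AT3G13120, -0.18 for AT1G64510 and -0.19 for PRL. None of these passed (adjusted p from 0.0524 to 0.259).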

How the data were processed

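Each of the 4 arrays gave 1 intensity per probe set. These intensities were deposited by the authors on a linear scale with background already subtracted, since some lie below 0. Their software, summarisation and scaling: not given in the sources used here. Of 19658 probe sets, 287 control sets were left out and 19371 tested. The array's public annotation, updated to TAIR10.1 gene identifiers, names 11592 of them, and no listed 40S gene had more than 1 probe set. That annotation mostly gives locus codes. Which protein a locus encodes, and its place in the head or body, come from general knowledge of these loci. The gene table names the protein of 11 listed loci, 0 of them measured.

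Values were taken as log2(intensity + 16) with negatives at 0, a scale on which the changes of dim genes are understated. The treatment was tested with limma 3.58.1, run under R 4.3.3 (two-sided, Benjamini-Hochberg over all tested probe sets, threshold 0.05), which gives every adjusted p printed. Each replicate was a pool of its own seedlings, per the labels' design text. Their deviations were not shared between same-numbered arrays (correlation 0.039), so no block was fitted. Replicate arrays correlated at r = 0.993 and 0.994 and 0 values were identical. Median intensity was 12.4 and 12.9 for ABA, against 16.9 and 17.0 for mock. Arrays have no read depth, and their number limits the precision.

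Values on each array are given for the 8 lowest and 4 highest of the 41 genes, for the 5 pairs that differ most, and where a protein is described. From other lists up to 3 genes past the threshold are named, or the 2 largest. The members, lists and rules were chosen with earlier results of these data known. The alternatives tried were other added constants, scalings, filters, neighbour numbers, a replicate block and leaving out each array.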

Additional observations from a re-analysis of the deposited data

How the results depend on the processing

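The count of 14 lower genes of the 41 moved by more than 1.5 times with the setting: 3 after quantile normalization, 7 after median centring and 38 with spike scaling. It was 29 of 39 with a floor of 32, where fewer sets were tested and 4029 of 8054 were lower. It was 32 of 40 with only probe sets above the 40th percentile of intensity, where 5809 of the 11622 tested were lower. It was 10 and 14 with 1 and 64 added, 13 without cross-binding sets, and 14 with an intensity trend or without genes under 32. Without any 1 array it ran from 0 to 0, as for the whole table. With the replicate number as a block it was also 0, with 0 of all 19371 sets called. At an unadjusted p under 0.05 in that limma fit 23 of 41 were lower, and 7115 of all sets were under it in either direction. Lower ones were not counted apart there either. The same-numbered arrays share only a number. The median change of -0.39 became -0.19 after median centring, -0.15 after quantile normalization and -0.84 with spike scaling, and ran from -0.46 to -0.31 without 1 array. The difference from equally bright sets, -0.072, ran from -0.11 to -0.018 without 1 array and from -0.087 to -0.057 in all other settings. The median paralog difference of 0.16 ran from 0.18 to 0.21 without 1 array and from 0.14 to 0.20 otherwise. Single genes turned their sign without passing: AT1G48830 to 0.097 and AT3G02560 to 0.046 after quantile normalization and to 0.078 and 0.030 after median centring, AT5G59240 to 0.14 and 0.082, and AT5G20290 to 0.010 after quantile normalization. AT3G09680, below the noise level, was -0.089 without ABA replicate 1, -0.036 without mock replicate 1 and, at its highest without 1 array, 0.31 without ABA replicate 2. Quantile normalization with the 40th percentile filter, chosen after seeing the data, called 9 of 40 genes lower, and 2304 of the 11622 sets tested. Leaving out genes under an intensity of 32 or ribosomal neighbours, also chosen afterwards, moved no summary by more than its spread. The causes were not tested. Precision is limited by 2 arrays a group and, for genes under the noise level of 7.54 to 8.76, by signal over background.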
